A study of Homo sapiens with 4 samples.

Results

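The genes described here were the splicing factors of Jurkat cells that carry out and steer the choice of splice sites: the SR proteins (SRSF genes) and their relatives TRA2A and TRA2B, the kinases that phosphorylate them (CLK and SRPK genes), the heterogeneous nuclear ribonucleoproteins (HNRNP genes), the PTB proteins, and the SF3A, SF3B and U2AF subunits that act with the U2 snRNP. They were taken by gene symbol alone, but the choice was made with earlier results of these data known. The pattern matched 194 names, of which 131 were left out because they ended in a pseudogene number or held a hyphen, which left 63 genes of the 50868 in the files. Averaged over all 4 libraries, FPKM reached 1 or more in 54 of the 63 and in 11503 genes altogether.

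Jurkat is a human T lymphoblast line, here of wild-type genotype, and all cells were cultured for 24 h in 1 of 4 conditions with 1 library each. The DMSO library received the solvent alone and the JQ1 library 0.5 μM JQ1, an inhibitor that displaces BET bromodomain proteins from acetylated chromatin. The DMSO + PHA and JQ1 + PHA libraries received the same together with 150 ng/ml phytohemagglutinin (PHA), a plant lectin that stimulates T cells through their receptor. No condition had a replicate, so no difference between conditions could be tested. Every interval below is a 95% exact (Clopper-Pearson) interval of the ratio of a gene's shares of the library, and it covers counting error only. Ratios are log2 ratios of these count shares unless FPKM is named, and FPKM is the authors' count scaled to gene length and library size.

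The libraries held 18620954 to 19685401 counts on genes. All 14 T-cell markers had more than 3 counts in each library (summed FPKM 821 to 1393), and markers of other blood lineages and of epithelium were at or near 0, apart from CD79A and BLK (CD79A 46 to 343 counts, BLK 295 to 566). HEXIM1, which is known to rise under BET inhibition, stood at 36.2 FPKM (DMSO), 109 (JQ1), 34.6 (DMSO + PHA) and 104 (JQ1 + PHA). EGR1, an immediate early gene of T-cell stimulation, stood at 0.491, 0.405, 39.9 and 6.85 FPKM in the same order, so the libraries matched their labels on both counts. In a bulk library, fewer cells expressing a gene and less RNA of it per cell cannot be told apart.

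Pre-mRNA splicing begins when the U1 snRNP binds the start of an intron and U2AF binds the pyrimidine tract and AG at its end. U2AF brings in the U2 snRNP, whose SF3A and SF3B subunits clamp it to the branch site. SR proteins bind exons through RNA recognition motifs and recruit these factors with their arginine- and serine-rich domains, which SRPK kinases phosphorylate in the cytoplasm and CLK kinases in the nucleus. The hnRNPs and PTB proteins bind exons and introns and often oppose them, so that the balance of both groups sets which exons are used. In T cells HNRNPLL is known for leading to the skipping of the variable exons of CD45. Many of these genes limit their own level through an alternative exon or a kept intron that sends the transcript to nonsense-mediated decay. The counts are per gene and do not tell such transcripts from productive ones. GENCODE release 44 lists a transcript of nonsense-mediated decay for 39 of the 54 members (72.2%, against 41.8% of all genes with mean FPKM of at least 1 that it holds) and a retained-intron transcript for 41 (75.9% against 52.3%).

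All 4 CLK genes stood higher with JQ1 in both comparisons, with both JQ1 libraries above both others, as was so in 36.3% of all genes. Their promoters are shown for that reason, as 250 bases upstream of the RefSeq start nearest to the start of the GENCODE canonical transcript (GRCh38.p14, 5′ to 3′ along the gene's strand). Capitals mark matches on either strand to the E-box written as CACGTG, the CRE written as TGACGTCA, the CRE half-site TGACG that overlaps with it, the CCAAT box, the GC box written as GGGCGG, the ETS site written as CCGGAAG and the TATA box written as TATAAA.
CLK1, chr2:200864659-200864908 (minus strand): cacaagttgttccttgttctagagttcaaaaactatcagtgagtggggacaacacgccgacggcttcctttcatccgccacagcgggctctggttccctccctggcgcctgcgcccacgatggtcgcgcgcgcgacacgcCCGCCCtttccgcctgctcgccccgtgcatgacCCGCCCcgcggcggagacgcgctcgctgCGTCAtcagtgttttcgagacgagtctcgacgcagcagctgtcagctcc
CLK2, chr1:155273505-155273754 (minus strand): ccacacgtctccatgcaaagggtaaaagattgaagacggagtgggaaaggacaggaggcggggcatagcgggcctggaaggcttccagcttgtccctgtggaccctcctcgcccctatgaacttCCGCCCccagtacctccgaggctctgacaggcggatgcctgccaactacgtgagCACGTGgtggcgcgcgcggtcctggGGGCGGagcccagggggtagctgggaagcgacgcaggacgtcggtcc
CLK3, chr15:74615586-74615835 (plus strand): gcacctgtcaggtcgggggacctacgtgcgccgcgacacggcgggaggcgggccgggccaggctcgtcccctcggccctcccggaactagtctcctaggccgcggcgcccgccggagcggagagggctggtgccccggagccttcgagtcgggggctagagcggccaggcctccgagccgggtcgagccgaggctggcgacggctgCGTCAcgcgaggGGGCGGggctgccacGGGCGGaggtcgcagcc
CLK4, chr5:178627051-178627300 (minus strand): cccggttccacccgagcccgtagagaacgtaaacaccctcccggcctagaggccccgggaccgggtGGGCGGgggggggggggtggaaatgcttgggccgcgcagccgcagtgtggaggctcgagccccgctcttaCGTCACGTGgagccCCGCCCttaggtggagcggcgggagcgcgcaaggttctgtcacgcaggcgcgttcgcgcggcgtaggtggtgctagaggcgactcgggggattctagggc
A GC box was found in all 4 windows, a CRE half-site in CLK1, CLK3 and CLK4, and an E-box in CLK2 and CLK4, where in CLK4 it overlaps the half-site. Of the 54 members, 50 had such a window. Among them the GC box was in 74% of the members' windows and 53.9% of all 19087 genes with a window, the CRE half-site in 48% of the members' windows and 24.9% of all, the E-box in 16% of the members' windows and 7.43% of all and the ETS site in 24% of the members' windows and 11.1% of all. For the CCAAT box the shares were 38% and 34.2%, for the TATA box 12% and 9.49%, and for the full CRE 0 and 2.29%. The windows of the members were richer in G and C, with a median of 65.4% against 62.0%. These matches are descriptions of sequence and say nothing of what binds there.

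With JQ1 the group as a whole stood near its level without it, while single members stood higher or lower. The 63 genes together took 2.30%, 2.41%, 2.20% and 2.39% of the counts in the DMSO, JQ1, DMSO + PHA and JQ1 + PHA libraries. Without PHA, 1 of the 54 members, CLK1, was at least 2-fold higher with JQ1 (5.22% of all genes tested were) and 0 were at least 2-fold lower (8.65% of all genes). With PHA, 0 members were at least 2-fold higher (3.69% of all genes) and 0 at least 2-fold lower (8% of all genes). These calls use FPKM after adding 0.1. At 1.5-fold, 8 members were higher with JQ1 alone, namely CLK1, CLK2, CLK4, HNRNPH1, HNRNPLL, PTBP3, SRSF4 and SRSF11 (14.8% of all genes), and HNRNPH3 and SF3B5 were lower (2 members, 19.3% of all genes). With PHA, 10 members were higher, namely CLK1, CLK2, HNRNPH1, HNRNPH2, HNRNPLL, HNRNPUL2, PTBP3, SRSF5, SRSF11 and TRA2A (11.7% of all genes), and 0 were lower (17.8%). With PHA, CLK4 was 1.51-fold higher by count shares and fell under the limit only once 0.1 was added to its FPKM. As a share of the 54 members, those past 1.5-fold upward were close to the share of all genes without PHA and above it with PHA, and those past it downward were below it in both comparisons.

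The median log2 FPKM ratio of the members was 0.028 without PHA and 0.13 with it, beside -0.012 and -0.021 over all genes tested. Without PHA the interval lay above 0 in 26 members (48.1%, against 36.9% of all genes) and below 0 in 23 (42.6% against 38.7%). With PHA it lay above 0 in 30 (55.6% against 34.6%) and below 0 in 17 (31.5% against 38.2%). The members had a median of 6329 counts per library, against 713 over all genes. More counts give narrower intervals, so neither these shares nor the later ones of members are matched on depth. The pair of comparisons shares no library, and 46 of the 54 members had the same sign in both (85.2%, against 82.8% of all genes). Both JQ1 libraries stood above both others in 26 members (48.1%, against 36.3% of all genes) and below both in 19 (35.2% against 38.5%). Over the 54 genes the ratios of the comparisons had a Spearman correlation of 0.889, against 0.786 over all genes, which describes these 4 libraries.

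**Figure D1:**
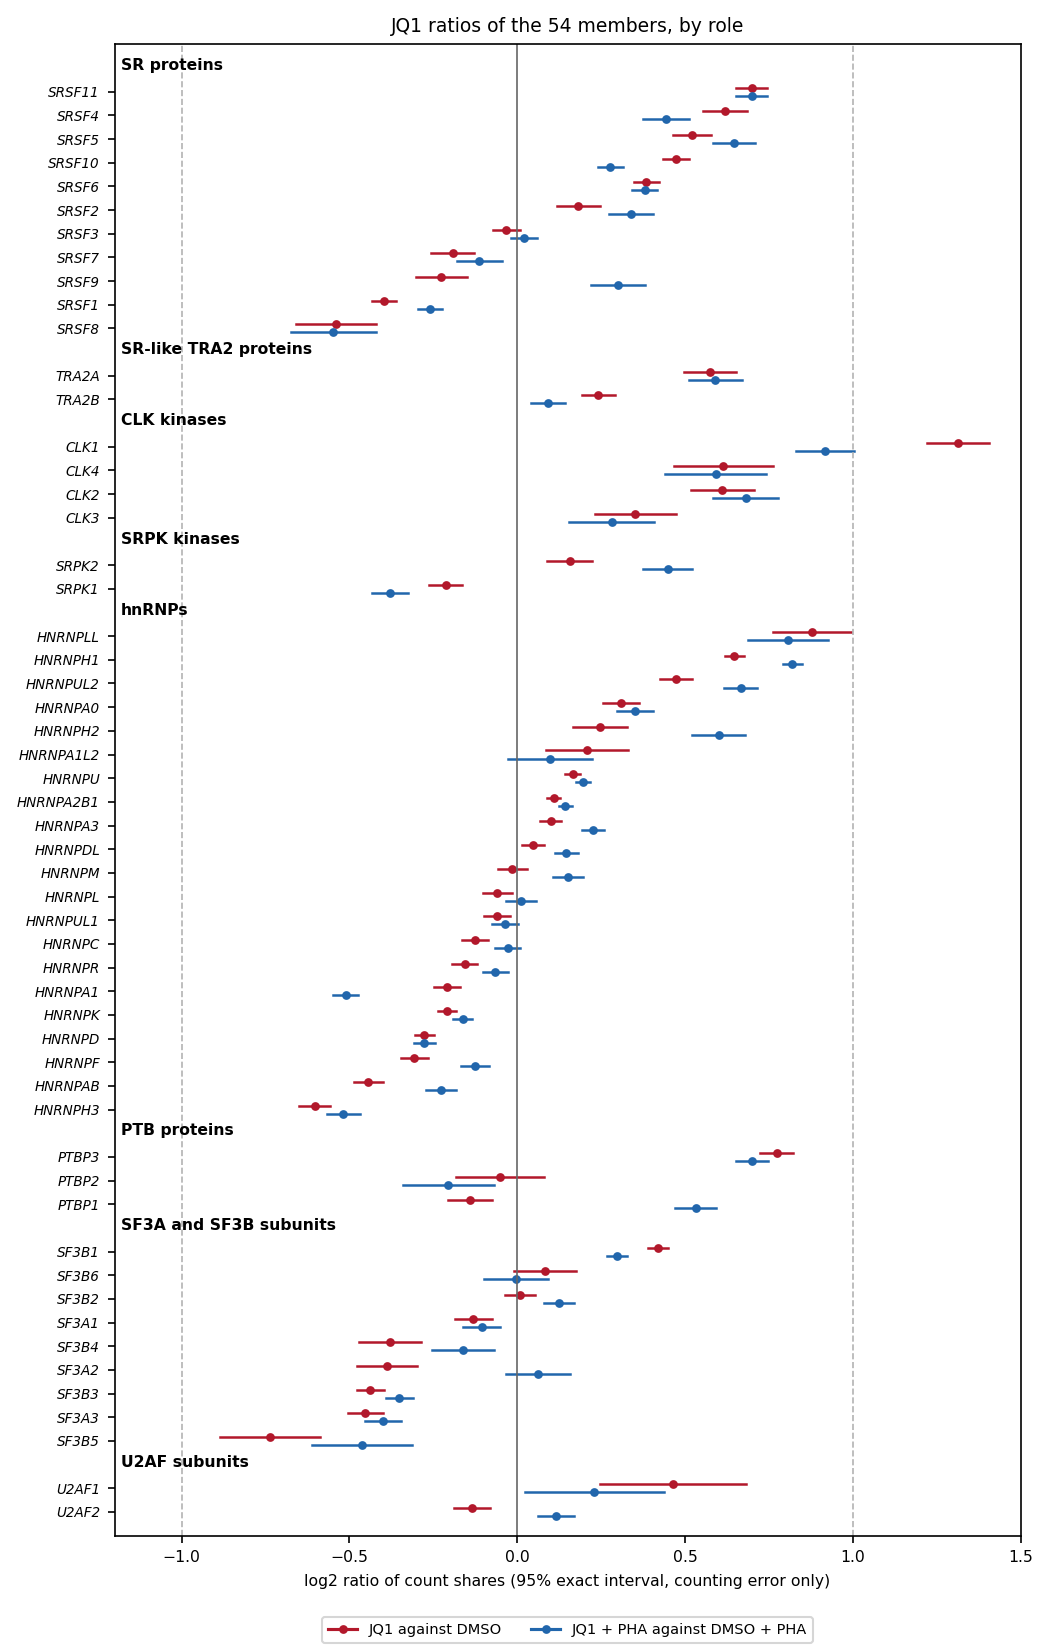
Log2 ratio of count shares for JQ1 against DMSO (red) and JQ1 + PHA against DMSO + PHA (blue) for the 54 members with mean FPKM of at least 1, grouped by role, with bars for the 95% exact intervals and dashed lines at a 2-fold ratio. The 4 CLK genes lie to the right of 0 in both colours, the SR proteins and hnRNPs lie on both sides, and SRSF9, PTBP1 and U2AF2 lie on opposite sides of 0 in the 2 colours.

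**Figure D2:**
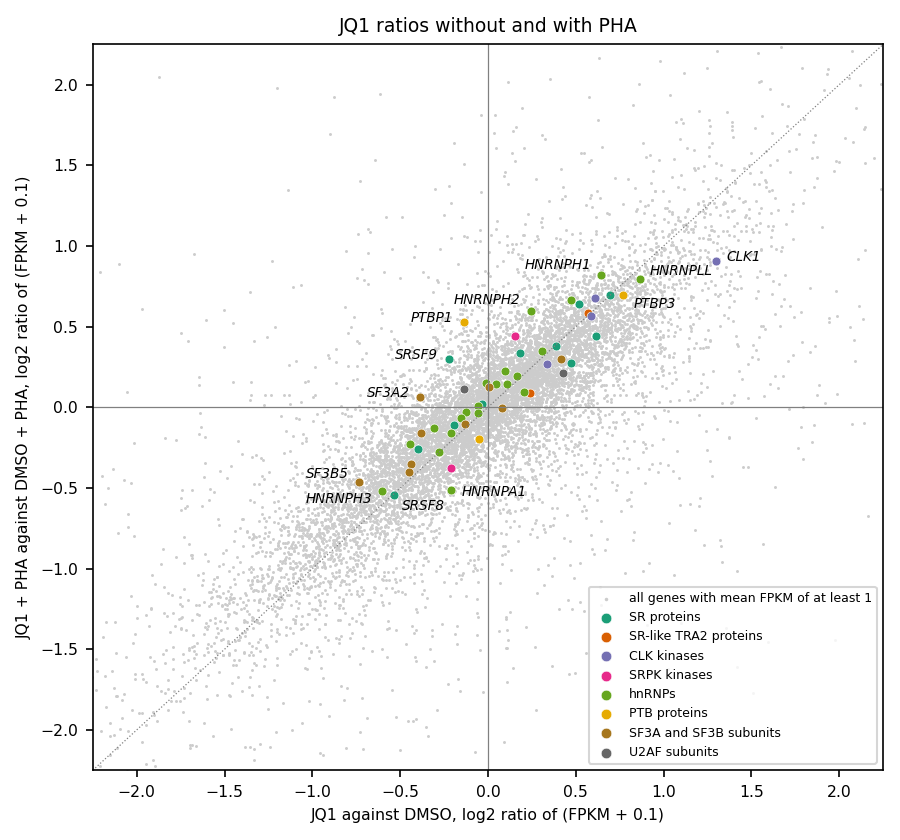
Log2 ratio of (FPKM + 0.1) for JQ1 without PHA (x axis) and with PHA (y axis), with all 11503 genes in grey and the 54 members coloured by role. Axes end at ±2.25, which leaves 274 genes outside the plot, none of them members. Most members lie along the diagonal, while PTBP1, SRSF9 and SF3A2 lie above it and to the left of 0.

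Of the kinases, the CLK genes stood higher with JQ1 and the SRPK genes split. The 4 CLK genes together took 0.0233%, 0.0411%, 0.0239% and 0.0385% of the DMSO, JQ1, DMSO + PHA and JQ1 + PHA libraries. CLK1, which phosphorylates SR proteins in the nucleus, had FPKM values of 5.65 (DMSO), 14 (JQ1), 6.82 (DMSO + PHA) and 12.9 (JQ1 + PHA). Both JQ1 libraries were above both others, and the CLK1 ratio was 1.31 (1.22 to 1.41) without PHA, a 2.48-fold difference, and 0.92 (0.83 to 1.0) with PHA, a 1.89-fold difference. The CLK1 level with DMSO + PHA was above that with DMSO alone by 0.27 (0.17 to 0.38), the largest such value among the members, and the JQ1 ratio was smaller with PHA by 0.40 on the log2 scale.

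CLK2 stood at 12.3, 18.7, 11.5 and 18.5 FPKM in the same order of libraries. CLK4 stood at 1.73, 2.65, 1.66 and 2.51 FPKM. In both genes the JQ1 libraries were the 2 higher ones, with ratios of 0.61 (0.52 to 0.71) and 0.68 (0.58 to 0.78) for CLK2. For CLK4 they were 0.61 (0.47 to 0.76) and 0.59 (0.44 to 0.74). CLK3 had the smallest ratios of the 4, 0.35 (0.23 to 0.47) and 0.28 (0.16 to 0.41), at 1.65, 2.10, 1.54 and 1.87 FPKM. Its gene body overlaps that of EDC3, which had 1191, 995, 1185 and 986 counts and went the other way with JQ1 (-0.32 and -0.19). The labels and the study's methods name different library kits, of which the latter is named as stranded, so whether reads of overlapping genes could be told apart is not settled. The overlap of CLK2 with HCN3 involved far fewer counts (213, 175, 134 and 160).

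SRPK1, the main cytoplasmic SR protein kinase, was lower with JQ1. Its FPKM was 26.2 (DMSO), 22.6 (JQ1), 24.2 (DMSO + PHA) and 18.6 (JQ1 + PHA), so the JQ1 + PHA library stood lowest. The SRPK1 ratio was -0.21 (-0.26 to -0.16) without PHA and -0.38 (-0.43 to -0.33) with PHA, and between the 2 JQ1 libraries it was -0.28 (-0.34 to -0.23) with PHA. SRPK2 stood at 13.3, 14.9, 10.4 and 14.2 FPKM, with the DMSO + PHA library lowest, at -0.36 (-0.43 to -0.28) against DMSO. Its JQ1 ratios were 0.16 (0.088 to 0.22) and 0.45 (0.37 to 0.52). The gene overlaps KMT2E, which had 2338, 3544, 2403 and 3309 counts and ratios of 0.54 and 0.54, and reads of the 2 genes could be shared. SRPK3, the kinase of muscle, had 0 counts in every library.

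The SR proteins divided into members that stood higher and members that stood lower with JQ1. Among 11 measured, the interval lay above 0 in 6 and below 0 in 4 without PHA, and above 0 in 7 and below 0 in 3 with PHA, beside 36.9% above and 38.7% below over all genes without PHA and 34.6% and 38.2% with it. Their summed share of the library was 0.372%, 0.421%, 0.353% and 0.409% in the order DMSO, JQ1, DMSO + PHA and JQ1 + PHA. The higher side held SRSF2, SRSF4, SRSF5, SRSF6, SRSF10 and SRSF11 in both comparisons. The lower side held SRSF1, SRSF7 and SRSF8, and SRSF3 stayed within counting error of 0 in both (-0.032 (-0.072 to 0.0071) and 0.02 (-0.02 to 0.06)).

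SRSF11, a protein found with U1 and U2AF, had nearly the same ratio in both comparisons, 0.70 (0.65 to 0.74) and 0.70 (0.65 to 0.74), from 17.1, 27.7, 17.1 and 27.7 FPKM. SRSF4 had FPKM values of 11.9 (DMSO), 18.3 (JQ1), 11.5 (DMSO + PHA) and 15.6 (JQ1 + PHA), and both JQ1 libraries were above both others. Its ratios were 0.62 (0.55 to 0.69) and 0.44 (0.38 to 0.51), and its JQ1 + PHA library stood below the JQ1 library by -0.23 (-0.30 to -0.17). SRSF5 had FPKM values of 13.2 (DMSO), 18.9 (JQ1), 10.4 (DMSO + PHA) and 16.2 (JQ1 + PHA), again with the JQ1 libraries on top. Here both PHA libraries were lower than their partners without PHA, by -0.35 (-0.41 to -0.28) in the DMSO pair and -0.22 (-0.27 to -0.17) in the JQ1 pair, so the JQ1 ratios remained 0.52 (0.46 to 0.58) and 0.65 (0.58 to 0.71).

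SRSF6 was the SR protein with the highest FPKM, 107 (DMSO), 140.0 (JQ1), 103 (DMSO + PHA) and 135 (JQ1 + PHA). Its JQ1 ratio was 0.38 (0.35 to 0.42) without PHA and 0.38 (0.34 to 0.42) with PHA, so the difference between them included 0 (-0.0045 (-0.056 to 0.047)). SRSF10, which acts as a repressor when it is dephosphorylated, had ratios of 0.47 (0.43 to 0.51) and 0.28 (0.24 to 0.32). SRSF2, known for mutations in myeloid malignancy, had 0.18 (0.12 to 0.25) and 0.34 (0.27 to 0.40). It overlaps MFSD11, which had 410, 741, 395 and 677 counts and was higher with JQ1 as well (0.79 and 0.86).

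On the lower side, SRSF8, whose sequence is close to that of SRSF2, had FPKM values of 18.2 (DMSO), 12.5 (JQ1), 16.2 (DMSO + PHA) and 11.1 (JQ1 + PHA). The JQ1 libraries were below both others, with ratios of -0.54 (-0.66 to -0.42) and -0.55 (-0.68 to -0.42), a 1.45-fold and a 1.46-fold lower share. SRSF1, the founding SR protein, was at 87.6, 66.5, 81.7 and 68.2 FPKM with ratios of -0.40 (-0.43 to -0.36) and -0.26 (-0.29 to -0.22). SRSF7, which takes part in mRNA export, had -0.19 (-0.26 to -0.13) and -0.11 (-0.18 to -0.046).

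SRSF9 went in opposite directions. Its FPKM values were 25.5 (DMSO), 21.8 (JQ1), 18.6 (DMSO + PHA) and 23 (JQ1 + PHA). The DMSO + PHA library was the lowest, at -0.45 (-0.53 to -0.37) against DMSO, while the 2 JQ1 libraries differed by 0.075 (-0.0025 to 0.15). The JQ1 ratio was therefore -0.23 (-0.30 to -0.15) without PHA and 0.30 (0.22 to 0.38) with it. The gene overlaps GATC, which had 1823, 1672, 1810 and 1702 counts and stood at -0.076 with DMSO + PHA against DMSO.

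The SR-like TRA2 proteins, which bind GA-rich exonic enhancers, stood higher with JQ1. TRA2A had FPKM values of 15.3 (DMSO), 22.7 (JQ1), 15 (DMSO + PHA) and 22.6 (JQ1 + PHA), with ratios of 0.57 (0.50 to 0.65) and 0.59 (0.51 to 0.67). TRA2B had smaller ratios, 0.24 (0.19 to 0.29) and 0.092 (0.041 to 0.14), at 15.8, 18.7, 15.7 and 16.8 FPKM. For TRA2A the ratios with and without PHA differed by 0.017 (-0.094 to 0.13), and for TRA2B by -0.15 (-0.22 to -0.079).

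**Figure D3:**
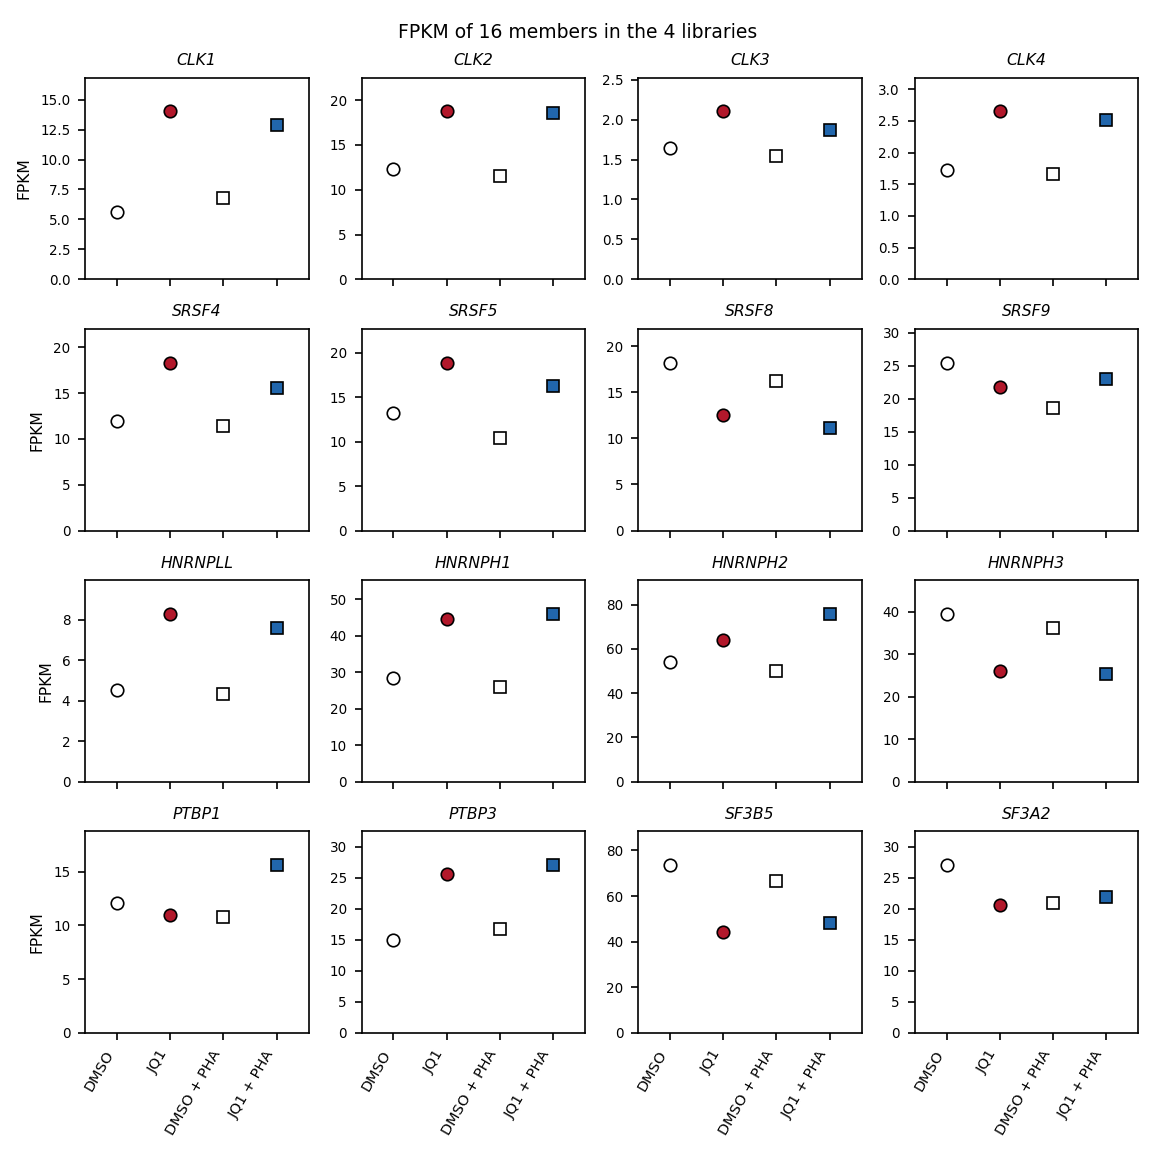
FPKM of 16 members in the 4 libraries, 1 point for each library (open symbols without JQ1, filled with JQ1, circles without PHA, squares with PHA), on linear axes from 0. The filled points lie above the open ones for the CLK genes, SRSF4, SRSF5, HNRNPLL, HNRNPH1, HNRNPH2 and PTBP3 and below them for SRSF8, HNRNPH3 and SF3B5, while PTBP1 is high only with JQ1 + PHA and SRSF9 is lowest with DMSO + PHA.

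The hnRNPs as a group took 1.44%, 1.46%, 1.36% and 1.44% of the libraries in the order DMSO, JQ1, DMSO + PHA and JQ1 + PHA, and their 21 measured members were spread on both sides of 0. Without PHA the interval lay above 0 in 10 and below 0 in 10, and with PHA in 10 and 7. Over all genes these shares were 36.9% and 38.7% without PHA and 34.6% and 38.2% with it. HNRNPLL had the largest ratio without PHA. It had FPKM values of 4.52 (DMSO), 8.30 (JQ1), 4.33 (DMSO + PHA) and 7.58 (JQ1 + PHA), so that both JQ1 libraries were above both others. Its ratios were 0.88 (0.76 to 1.0) and 0.81 (0.69 to 0.93), a 1.84-fold and a 1.75-fold difference, and DMSO + PHA against DMSO was within counting error of 0 (-0.06 (-0.19 to 0.073)). HNRNPL, its close relative, stayed near 0 in both comparisons (-0.059 (-0.10 to -0.015) and 0.011 (-0.034 to 0.056)).

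The 3 members of the HNRNPH group, which bind runs of G, differed in direction. HNRNPH1 had FPKM values of 28.6 (DMSO), 44.7 (JQ1), 26.1 (DMSO + PHA) and 46.1 (JQ1 + PHA), with ratios of 0.65 (0.62 to 0.67) and 0.82 (0.79 to 0.85). HNRNPH3 had FPKM values of 39.5 (DMSO), 26 (JQ1), 36.2 (DMSO + PHA) and 25.3 (JQ1 + PHA), and its JQ1 libraries were below both others, with ratios of -0.60 (-0.65 to -0.56) and -0.52 (-0.57 to -0.47). HNRNPH1 was thus among the higher members and HNRNPH3 among the lower ones. HNRNPH2 had FPKM values of 54.1 (DMSO), 64.1 (JQ1), 50.0 (DMSO + PHA) and 75.8 (JQ1 + PHA), and its ratio was 0.25 (0.17 to 0.33) without PHA and 0.60 (0.52 to 0.68) with it, a difference of 0.35 (0.24 to 0.47). A readthrough gene from RPL36A into HNRNPH2 held 116, 512, 135 and 181 further counts, with a JQ1 ratio of 2.08 without PHA and 0.50 with it. Added to those of HNRNPH2, these counts would bring its JQ1 ratios without and with PHA closer together. HNRNPF, which shares the binding preference of HNRNPH1, was lower with JQ1 (-0.31 (-0.35 to -0.27) and -0.13 (-0.17 to -0.085)).

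HNRNPU, a nuclear matrix protein, had the highest mean FPKM of all members, 132 (DMSO), 148 (JQ1), 129 (DMSO + PHA) and 147 (JQ1 + PHA). Its ratios were small, 0.17 (0.14 to 0.19) and 0.20 (0.17 to 0.22), and both lay above 0. HNRNPA2B1, known for RNA transport, had FPKM values of 116 (DMSO), 125 (JQ1), 111 (DMSO + PHA) and 123 (JQ1 + PHA), with ratios of 0.11 (0.089 to 0.13) and 0.14 (0.12 to 0.16). HNRNPA2B1 overlaps CBX3, which had 4686, 4006, 5115 and 3777 counts and ratios of -0.29 and -0.36. HNRNPU and HNRNPA2B1 are deep genes, in which intervals are narrow and a ratio this close to 0 can exclude it. HNRNPUL2, a relative of HNRNPU, had larger ratios, 0.47 (0.42 to 0.52) and 0.67 (0.62 to 0.72), whereas HNRNPUL1 had -0.06 (-0.10 to -0.021) and -0.036 (-0.075 to 0.003). HNRNPA0 had 0.31 (0.26 to 0.36) and 0.35 (0.30 to 0.40).

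Lower with JQ1 in both comparisons were HNRNPAB (-0.44 (-0.49 to -0.40) and -0.23 (-0.27 to -0.18)) and HNRNPD (-0.28 (-0.31 to -0.25) and -0.28 (-0.31 to -0.25)), a protein also called AUF1 that binds AU-rich mRNAs. HNRNPK, which binds C-rich tracts, had -0.21 (-0.24 to -0.18) and -0.16 (-0.19 to -0.13). HNRNPR had -0.16 (-0.19 to -0.12) and -0.066 (-0.10 to -0.029). HNRNPDL, which resembles HNRNPD in sequence, lay on the other side of 0 (0.047 (0.014 to 0.08) and 0.15 (0.11 to 0.18)), as did HNRNPA3 (0.10 (0.068 to 0.13) and 0.23 (0.19 to 0.26)). HNRNPM (-0.014 (-0.057 to 0.029) and 0.15 (0.11 to 0.19)) and HNRNPC (-0.13 (-0.16 to -0.088) and -0.029 (-0.067 to 0.0092)) each had an interval that included 0 in 1 of the comparisons. The gene body of HNRNPM overlaps that of ELAVL1, which had 3914, 3674, 4021 and 3603 counts and ratios of -0.16 and -0.078.

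For HNRNPA1, a repressor of many exons, the value turned on how reads are shared with its copies. The gene itself had 11535 (DMSO), 10431 (JQ1), 14426 (DMSO + PHA) and 9571 (JQ1 + PHA) counts, so the DMSO + PHA library was the highest. Its ratios were -0.21 (-0.25 to -0.17) without PHA, -0.51 (-0.55 to -0.47) with PHA, and 0.26 (0.22 to 0.29) for DMSO + PHA against DMSO. Pseudogenes named after it, which the rule leaves out, held 78.2%, 79.2%, 73% and 79.4% of the counts of gene and pseudogenes together, 11 of 75 having more than 3 counts in at least 1 library. Counted as 1, gene and pseudogenes stood at -0.14 (-0.16 to -0.12), -0.12 (-0.14 to -0.10) and -0.051 (-0.068 to -0.034) in these comparisons, so the ratio with PHA became smaller and the one for PHA alone changed sign.

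The copies with most counts were HNRNPA1P48 on chromosome 16 (19767 to 21306 counts) and HNRNPA1P7 on chromosome 18 (14988 to 17616). Of the 1116 coding bases of the HNRNPA1 canonical transcript, 960 aligned to each, with 99.4% and 99.1% identity and unbroken identical runs of 331 and 652 bases. A stretch of 60 coding bases is shown because it holds a base by which HNRNPA1P48 can be told from the gene while HNRNPA1P7 cannot be (GRCh38, 5′ to 3′ along the transcript, exon 3 of 11 of HNRNPA1). Capitals mark a base that differs from HNRNPA1.
HNRNPA1, chr12:54281795-54281854 (plus strand): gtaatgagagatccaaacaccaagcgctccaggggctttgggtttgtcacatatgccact
HNRNPA1P48, chr16:51645950-51646009 (plus strand): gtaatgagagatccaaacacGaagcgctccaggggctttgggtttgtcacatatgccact
HNRNPA1P7, chr18:32412985-32413044 (minus strand): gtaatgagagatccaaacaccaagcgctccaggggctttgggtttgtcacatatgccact
Counted from 1 at the 5′ end of the stretch, HNRNPA1P48 differs by C21G and HNRNPA1P7 by 0 bases. A read that lies within such a run fits gene and copy equally well, and how such reads were counted is not given in the sources used here. HNRNPA1L2, an intronless relative that the rule keeps, has 98.4% identity over 960 bases and had ratios of 0.21 (0.086 to 0.33) and 0.10 (-0.026 to 0.22).

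In the other members with many pseudogene counts, adding them made smaller differences. Pseudogenes of HNRNPA3 held 45%, 45%, 46.8% and 45.3% of the summed counts, and with them the ratios were 0.10 (0.077 to 0.12) and 0.19 (0.16 to 0.21). Pseudogenes of HNRNPC held 17.6%, 15.2%, 15.6% and 14.2%, and those of HNRNPK 9.29%, 9.32%, 10.5% and 10.5%. With them HNRNPC had -0.17 (-0.20 to -0.13) and -0.052 (-0.087 to -0.017), and HNRNPK -0.21 (-0.24 to -0.18) and -0.16 (-0.19 to -0.14). The sign of both JQ1 ratios was kept in these 3 genes.

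**Figure D4:**
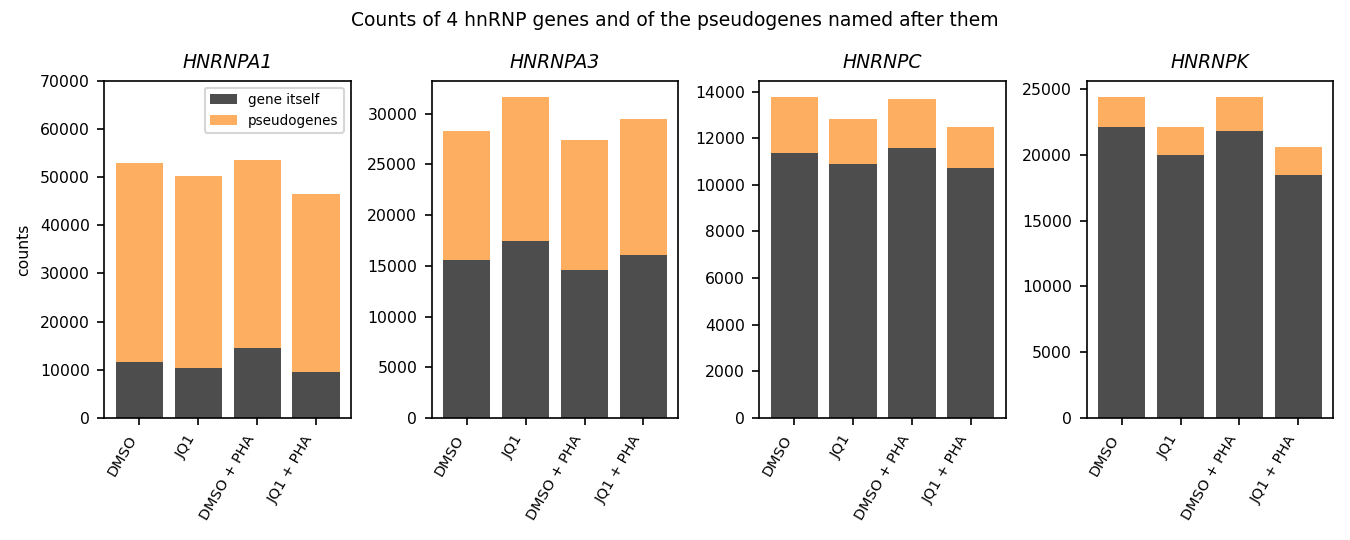
Counts of 4 hnRNP genes (dark) and of all pseudogenes named after them (orange, stacked on top) in the 4 libraries, on linear axes from 0 that differ between panels. For HNRNPA1 the pseudogenes hold most of the stack (73.0% to 79.4%), and the dark part alone is tallest with DMSO + PHA, while the whole stack is not raised there in the same measure.

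The 3 PTB proteins, which bind pyrimidine tracts and repress exons, differed from each other. PTBP3 had FPKM values of 15 (DMSO), 25.7 (JQ1), 16.7 (DMSO + PHA) and 27.1 (JQ1 + PHA), with both JQ1 libraries above both others and ratios of 0.77 (0.72 to 0.82) and 0.70 (0.65 to 0.75). PTBP1 had FPKM values of 12 (DMSO), 10.9 (JQ1), 10.8 (DMSO + PHA) and 15.6 (JQ1 + PHA). Only the JQ1 + PHA library of PTBP1 stood apart, and the other 3 lay close together. Its ratio was -0.14 (-0.21 to -0.075) without PHA and 0.53 (0.47 to 0.59) with it, a difference of 0.67 (0.58 to 0.76), which was the largest among the members. PTBP2, best known from neurons, was low (2.81, 2.71, 2.82 and 2.44 FPKM), with ratios of -0.051 (-0.18 to 0.08) and -0.21 (-0.34 to -0.07).

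Of the 9 measured subunits of SF3A and SF3B, 6 had ratios below 0 with JQ1 in each comparison, though not the same 6. SF3B1 and SF3B2 had ratios above 0 in both. Over all 11503 genes the log2 FPKM ratio was below 0 in 5838 without PHA and in 5923 with it. For the 9 subunits the interval lay below 0 in 6 without PHA and in 5 with PHA, and above 0 in 1 and 2. Over all genes it lay below 0 in 38.7% and 38.2% and above 0 in 36.9% and 34.6%. SF3B1, the scaffold that contacts the branch site, had FPKM values of 60.7 (DMSO), 81.1 (JQ1), 66.2 (DMSO + PHA) and 81.4 (JQ1 + PHA) and had ratios of 0.42 (0.39 to 0.45) and 0.30 (0.27 to 0.33). SF3B5, a small subunit, had FPKM values of 73.6 (DMSO), 44.2 (JQ1), 66.6 (DMSO + PHA) and 48.4 (JQ1 + PHA), and its JQ1 libraries were below both others, with ratios of -0.74 (-0.88 to -0.59) and -0.46 (-0.61 to -0.31). Without PHA that was the lowest ratio of all members, a 1.67-fold lower share.

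SF3A3 (-0.45 (-0.51 to -0.40) and -0.40 (-0.45 to -0.35)) and SF3B3 (-0.44 (-0.48 to -0.40) and -0.35 (-0.39 to -0.31)) were lower in both comparisons. SF3B4 had -0.38 (-0.47 to -0.29) and -0.16 (-0.25 to -0.068), and SF3A1 -0.13 (-0.19 to -0.077) and -0.11 (-0.16 to -0.052). SF3A2 had FPKM values of 27 (DMSO), 20.7 (JQ1), 21 (DMSO + PHA) and 21.9 (JQ1 + PHA), so the DMSO library alone was high. Its ratios were -0.39 (-0.48 to -0.30) for JQ1 alone, 0.062 (-0.033 to 0.16) with PHA and -0.37 (-0.46 to -0.28) for DMSO + PHA against DMSO. PLEKHJ1, whose gene body overlaps it, had 358, 263, 302 and 278 counts and ratios of -0.51, -0.039 and -0.31 in the same comparisons. SF3B2 (0.0085 (-0.036 to 0.054) and 0.13 (0.08 to 0.17)) and SF3B6 (0.082 (-0.0097 to 0.17) and -0.0042 (-0.10 to 0.091)) were near 0 without PHA. Within the complex, SF3B1 and SF3B5 thus differed in direction, and the same held in both pairs of libraries.

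Of U2AF, the large subunit U2AF2, which binds the pyrimidine tract, had FPKM values of 51.4 (DMSO), 46.8 (JQ1), 46.1 (DMSO + PHA) and 50.0 (JQ1 + PHA). Its ratios had opposite signs, -0.13 (-0.19 to -0.082) and 0.11 (0.061 to 0.17), both small. The small subunit U2AF1, which reads the AG, had the lowest mean FPKM of the 54 members and only 301 (DMSO), 434 (JQ1), 368 (DMSO + PHA) and 408 (JQ1 + PHA) counts. Its ratios were 0.46 (0.25 to 0.68) and 0.23 (0.022 to 0.44), with wide intervals. GRCh38 holds a further copy of the gene, U2AF1L5, at chr21:6484623-6499261, in which all 8 coding exons (720 bases) of U2AF1 are found without a difference, and U2AF1L5 had 0 counts in every library. Reads from these exons fit both places equally, so the U2AF1 level is uncertain.

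With PHA alone most members stood slightly lower than with DMSO. In DMSO + PHA against DMSO the log2 FPKM ratio was below 0 in 44 of the 54 members and above 0 in 10 (18.5%, against 48.9% of all genes). Of 175 other splicing genes, read by list below, 38.9% were above 0. By list this share ran from 20% (U5 and the tri-snRNP) to 72.7% (U12 spliceosome), so some lists leaned down as the members did and others did not. The interval lay below 0 in 33 members (61.1%, against 25.1% of all genes) and above 0 in 6 (11.1% against 24.7%). These interval shares are not matched on depth, since members had a median of 6329 counts per library against 713 over all genes. The median ratio was -0.086, against -0.0063 over all genes, and the range -0.45 to 0.27. Of the 21 hnRNPs, the interval lay below 0 in 17, and of the 11 SR proteins in 8, beside the same 25.1% of all genes. The lowest ratios were those of SRSF9, SF3A2 and SRPK2 given above, and the highest those of CLK1, HNRNPA1 and U2AF1 (0.22 (0.001 to 0.45)). Counted with its pseudogenes, HNRNPA1 stood at -0.051 instead, and reads from the coding exons of U2AF1 also fit its copy U2AF1L5. No member was past 1.5-fold or 2-fold, 0 of 54 in either direction. Of all genes, 2.1% were at least 2-fold higher, 1.19% at least 2-fold lower, 5.59% at least 1.5-fold higher and 3.83% at least 1.5-fold lower. This comparison shares its DMSO library with that of JQ1 against DMSO.

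Between the JQ1 libraries the ratios were smaller. In JQ1 + PHA against JQ1 the interval included 0 in 24 of the 54 members, lay below 0 in 18 (33.3%, against 15.7% of all genes) and above 0 in 12 (22.2% against 15.6%). Here too the interval shares are not matched on depth. The members had a median log2 FPKM ratio of -0.019 against -0.0022 over all genes. The highest ratios were those of PTBP1 at 0.52 (0.45 to 0.58), HNRNPH2 at 0.24 (0.17 to 0.32) and SF3B5 at 0.13 (-0.035 to 0.29). The readthrough gene from RPL36A into HNRNPH2 went the other way, at -1.42 (512 counts with JQ1 and 181 with JQ1 + PHA). Counted together with it, HNRNPH2 would have a lower ratio here. The lowest ratios were those of SRPK1, SRSF4 and SRSF5 given above. Again 0 members were past 1.5-fold or 2-fold. Of all genes, 1.04% were at least 2-fold higher, 1.03% at least 2-fold lower, 2.58% at least 1.5-fold higher and 3.05% at least 1.5-fold lower.

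The other genes of splicing, 175 in 9 lists with mean FPKM of at least 1, were read for comparison, and those past 2-fold are named. At the 2-fold limit, the JQ1 library stood above DMSO for 1 of the 175 and below it for 5, beside 5.22% and 8.65% of all genes. With PHA these counts were 1 and 1, beside 3.69% and 8% of all genes. RBFOX2, a regulator of alternative exons, had FPKM values of 1.49 (DMSO), 6.67 (JQ1), 2.51 (DMSO + PHA) and 3.09 (JQ1 + PHA), so the JQ1 library alone stood apart. SNU13, a protein of the U4/U6.U5 tri-snRNP, had FPKM values of 18.9 (DMSO), 4.09 (JQ1), 15.9 (DMSO + PHA) and 10.5 (JQ1 + PHA), again with the JQ1 library apart but low. PHF5A, itself a subunit of SF3B that the naming rule does not reach, had ratios of -1.15 (-1.28 to -1.02) and -0.68 (-0.82 to -0.55). The further genes past 2-fold without PHA were SNRPF of the Sm ring (-1.03 (-1.13 to -0.93)), PPIL1 of the catalytic spliceosome (-1.11 (-1.24 to -0.99)) and MAGOHB of the exon junction complex (-1.06 (-1.21 to -0.90)). With PHA they were CIRBP, a cold-inducible RNA-binding protein (1.26 (1.14 to 1.38)), and LSM7 of the LSm ring (-1.32 (-1.52 to -1.13)).

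By list, the 16 Sm and LSm proteins had the lowest median log2 FPKM ratio, -0.49 without PHA and -0.36 with it, and the interval lay below 0 in 11 and 12 of them, beside 38.7% and 38.2% of all genes. The 17 U2-associated proteins outside the rule had medians of -0.27 and 0.012, and the 20 proteins of U5 and the tri-snRNP -0.12 and -0.0044. The 12 genes of the U1 snRNP and its partners had the highest at this filter, 0.16 and 0.23, followed with PHA by the 18 SR-related proteins (0.086 and 0.17). The remaining lists were the PRP19 complex and catalytic factors (-0.024 and -0.086), the exon junction complex and nonsense-mediated decay (0.0078 and 0.091), other regulators of alternative splicing (0.10 and 0.066) and the U12 spliceosome (0.059 and -0.15). With genes of mean FPKM of at least 5 only, the U12 median without PHA changed sign to -0.16, and the U1 median was 0.056, below those of the SR-related proteins (0.082) and the other regulators (0.10). The signs of the tri-snRNP median with PHA and the PRP19 median without PHA, both near 0, turned with another scaling.

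The other 9 members did not reach a mean FPKM of 1. HNRNPCL1 had 5 to 9 counts and U2AF1L4 136 to 160, with an overlap to PSENEN, which had 288, 227, 310 and 227 counts. HNRNPCL2, HNRNPCL3, HNRNPCL4, SRPK3 and U2AF1L5 had 0 counts in all 4 libraries, which allows up to 3 counts in each, or 0.152 to 0.161 CPM. SRSF12 had 1 count in all, and SRPK2P, a pseudogene that the rule keeps because its name ends in P alone, had 0, 1, 0 and 3. These 9 entered the summed shares of the libraries, but no other count or median above.

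Levels between members depend on the gene length used. The length implied by the deposited FPKM was a median of 3.12 times that of the canonical GENCODE transcript, and from 0.935 to 17.0 times between members, with the highest value in CLK3. In CPM per kilobase of canonical transcript, HNRNPA2B1 had the highest level (610.4), followed by HNRNPH1 (498), which ranked 24 by FPKM. HNRNPU, with the highest FPKM, had 261 on this scale. The ratios of count shares between libraries do not depend on the length, since it was the same in every library. The filter on mean FPKM does, and so, slightly, do the FPKM ratios after adding 0.1. For CLK4 with PHA the JQ1 ratio was 0.59 by count shares and 0.56 by FPKM.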

How the data were processed

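RNA-seq had been done on 4 Jurkat libraries, 1 for each condition. Per the labels and the study's methods, Hisat2 2.0.4 was the aligner and GRCh38 the genome. The submitters' processing notes list TopHat2 2.0.9 and Cufflinks 2.1.1 with no role, and neither the counting program nor its use of strand nor the annotation used is given in the sources used here. The labels name a VAHTS Universal V6 library kit and the study's methods a VAHTS stranded one, so for overlapping genes it is not settled whether strand could separate their reads. The deposited values are raw counts per gene and FPKM made by the authors.

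Groups came from the labels. A pseudocount of 0.1 was added to FPKM, genes with mean FPKM of at least 1 were kept, and the limits were 2-fold and 1.5-fold. Intervals of ratios of count shares were exact (Clopper-Pearson, 95%, scipy 1.17.1), and the interval of a difference between 2 log2 ratios was a normal approximation from the 4 counts. The calculation was checked on simulated counts. Members and lists were chosen with earlier results of these data known. Values in every library were given for the 3 highest and 3 lowest ratios of each comparison, the 5 largest differences between the JQ1 ratios, the 3 highest mean FPKM, members past 2-fold and HNRNPLL, and other members by role. Alternatives changed the pseudocount, filter, centring and scaling (edgeR 4.0.16, DESeq2 1.42.0 factors). Promoters came from the RefSeq table of GRCh38.p14 (56 of 63 members matched), and gene models from GENCODE 44 (63 of 63).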

Additional observations from a re-analysis of the deposited data

Results flagged for a closer look

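PTBP1 stood out because its JQ1 ratio had opposite signs without and with PHA, each with an interval that excluded 0, and the ratio with PHA minus that without was 0.67 on the log2 scale (0.58 to 0.76). The same held for SRSF9, with a difference of 0.53 (0.42 to 0.64), and for U2AF2, with 0.25 (0.17 to 0.32). Each difference rests on 4 libraries, 1 for each condition, and the intervals cover counting error only, so it was not tested against the spread between cultures. For PTBP1 the library that stood apart was JQ1 + PHA (4960 counts against 3628 to 3863 in the others), and for SRSF9 it was DMSO + PHA (2324 against 2707 to 3037).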

How the results depend on the processing

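No paired analysis was possible because each condition had 1 library, and for the same reason no library could be left out. Of the recomputed counts and medians of the members, 80 stayed near their value and 5 did not. With a limit of 1.5-fold the members past the limit were 10 for JQ1 against DMSO (8 higher, 2 lower) and 10 for JQ1 + PHA against DMSO + PHA (10 higher, 0 lower). With no filter on low values 1 member was past 2-fold with PHA, SRPK2P, at 0 and 3 counts. The median without PHA, near 0, was -0.0028 with mean FPKM of at least 5. The median ratio of the members with PHA became 0.18 with edgeR's TMM factors and 0.19 with DESeq2's size factors. Each set of factors scales all genes of a library alike. The median of all genes with PHA went from -0.021 to 0.028 with TMM factors and 0.037 with DESeq2's, a shift of at most 0.06. With the pseudogene counts added to their parent, an alternative chosen after seeing the data, HNRNPA1 in DMSO + PHA against DMSO changed sign, to -0.051. Of 412 recomputed ratios of single genes, 409 kept their sign. Among the 412, 382 stayed within the gene's counting interval and 29 moved outside it. The other 1, that of HNRNPA1, changed sign although its main interval excluded 0. Of 288 recomputed medians of the lists of other splicing genes, 274 kept their sign, and the U12 median for JQ1 against DMSO was among those that did not, at -0.16 with mean FPKM of at least 5. Depth limits U2AF1, CLK4, SF3B5, PTBP2 and CLK3 most, with 301 to 1304 counts in each library.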
